A study of Mus musculus with 6 samples.

Results

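Lamp5 interneurons of the mouse hippocampus were represented by 133 nuclei out of 27766 kept nuclei of a single-nucleus RNA-seq series. A nucleus was taken as a member when it held at least 3 UMIs (unique molecular identifiers, the counted RNA molecules) of Gad1 and Gad2 together, at least 2 UMIs of Lamp5, and no UMI of Sst or Vip. Nuclei were kept from 500 detected genes upward, with mitochondrial UMIs up to 5%. The members were thus chosen by the measured UMIs of Gad1, Gad2, Lamp5, Sst and Vip, and the levels of these 5 genes are given below only as a description.

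The series asked how CI-994, which blocks class I histone deacetylases and is called HDACi here, changes the hippocampal transcriptome around contextual fear conditioning (CFC). All mice were 12-week-old C57BL/6J males, with tissue labelled as hippocampus (DG), the dentate gyrus. HDACi-CFC mice received 30 mg/kg CI-994 in a mixed DMSO, Kolliphor and saline vehicle 1 h before a chamber visit with 2 foot shocks of 0.2 mA. Veh-CFC mice received that vehicle alone before the same visit, HDACi-Context mice received the drug before a visit without shock, and Veh-Context mice received vehicle before a visit without shock. All were killed 1 h after the exposure. HDACi-CFC and Veh-CFC each have 2 libraries, HDACi-Context and Veh-Context each have 1, and every library pools 5 animals. One label field of the library labelled Veh-Context names the drug, while its title and treatment field name vehicle, and the title was followed.

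Neurogliaform and ivy cells are GABA neurons with dense, short axons that release GABA as a diffuse cloud around neighbouring dendrites rather than at tight synapses. Neurogliaform cells of the hippocampus come from both ganglionic eminences of the embryo, and ivy cells from the medial one, whose interneurons carry the transcription factor Lhx6. Both kinds are known for neuropeptide Y, neuronal nitric oxide synthase and, in neurogliaform cells, reelin. Histone deacetylases remove acetyl groups from histone tails, and class I enzymes act within corepressor complexes at promoters and enhancers.

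HDACi-CFC replicates 1 and 2 gave 19 and 20 Lamp5 nuclei, Veh-CFC replicates 1 and 2 gave 22 and 19, HDACi-Context gave 28 and Veh-Context gave 25. This was 0.508% and 0.392% of kept nuclei in the HDACi-CFC libraries, 0.579% and 0.408% in the Veh-CFC libraries, 0.512% in HDACi-Context and 0.500% in Veh-Context. The HDACi-CFC and Veh-CFC values overlapped, and the exact (Clopper-Pearson) 95% binomial intervals ran from 0.240% to 0.876% over the 4 CFC libraries. No test was made, since an exact permutation of 2 libraries against 2 cannot give a two-sided p below 0.333. The intervals cover counting error only. At the edges of the rule, 11 to 15 members of a library held exactly 2 Lamp5 UMIs, while 14 to 24 nuclei with 1 Lamp5 UMI stayed outside. After every nucleus was thinned to 3000 UMIs the rule found 4 and 4 members in the HDACi-CFC libraries, 9 and 4 in the Veh-CFC libraries, 4 in HDACi-Context and 7 in Veh-Context.

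The Lamp5 nuclei of a library held 145383 to 304447 UMIs in all, with medians of 7363 to 9366 UMIs per nucleus. The 6 libraries held 3743 to 5473 kept nuclei, shared at most 0.294% of their barcodes in pairs, and a doublet caller marked 7 of the 133 members. One Lamp5 nucleus of Veh-CFC replicate 1 stood apart with 42596 UMIs, which was 19.7% of the UMIs of that library's Lamp5 nuclei. It was marked as a doublet and held 29 UMIs of the granule cell markers Dsp, Stxbp6 and C1ql2, and results that rest on it are given with and without it. The 2 libraries of a group differed by 2.05 (HDACi-CFC) and 2.11 (Veh-CFC) times the sampling noise of their counts (chi-square per degree of freedom over genes), and the libraries of a group were treated as separate samples. The p-values below measure the spread between these pooled libraries.

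The markers chosen for the Lamp5 label were checked first, as CPM, the UMIs of a gene scaled to a common total of UMIs in the same nuclei. Id2, a transcriptional inhibitor found in neurogliaform cells, lay at 234 and 235 CPM in the HDACi-CFC libraries, 125 and 194 CPM in the Veh-CFC libraries, 118 CPM in HDACi-Context and 103 CPM in Veh-Context. In other GABA nuclei, which passed the Gad1 and Gad2 threshold but held no Lamp5 UMI (1188 nuclei), Id2 lay between 17.5 and 32.7 CPM. The Lamp5 nuclei lay above the other GABA nuclei for Id2 in every library.

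Ndnf, a secreted factor of neurogliaform cells, had a median of 68.3 CPM over the 6 libraries in Lamp5 nuclei and 41.1 CPM in other GABA nuclei, and the libraries overlapped. Apart from Reln, given below, the other genes listed for neurogliaform or caudally derived cells had lower medians in Lamp5 nuclei than in other GABA nuclei. The medians were 2388 and 3783 CPM for Adarb2, 34.9 and 51.5 CPM for Nr2f2, and 47.8 and 69.9 CPM for Prox1. They were 5.06 and 74.6 CPM for Npas1, 2.73 and 45.3 CPM for Cxcl14, and 0 and 1.92 CPM for Sp8. Adarb2 was lower in every library. Kit, a receptor tyrosine kinase, had a median of 99.9 CPM in Lamp5 nuclei and 17.3 CPM in other GABA nuclei. Kit was found in 15.8% to 36.4% of the Lamp5 nuclei of a library. Nuclei without any Gad1 or Gad2 UMI showed Kit in 13.5% to 18.3%, at median depths of 5125 to 6493 UMIs, close to the lower end of the range in Lamp5 nuclei. Lamp5 itself had a median of 303 CPM, a level set by the rule.

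The nitric oxide synthase gene Nos1 and the neuropeptide gene Npy, neither used by the rule, were detected in 75 and 80 of the 133 members. By library, Nos1 was detected in 36.4% to 75% of the members and Npy in 36.8% to 75%. Nos1 had a median of 172 CPM in Lamp5 nuclei and 32.3 CPM in other GABA nuclei. Npy had a median of 212 CPM in Lamp5 nuclei and 134 CPM in other GABA nuclei, and nuclei with at least 2 Sst UMIs had a median of 317 CPM. In the Veh-CFC libraries Npy was not higher in Lamp5 nuclei, at 120 and 88.3 CPM against 123 and 194 CPM in other GABA nuclei. In the HDACi and Context libraries Npy was higher in Lamp5 nuclei. Erbb4, the neuregulin receptor of interneurons, had medians of 9873 CPM in Lamp5 nuclei and 5191 CPM in other GABA nuclei. Satb1, a transcription factor of other medially derived interneurons, lay at 0 to 16.4 CPM in Lamp5 nuclei and at 130 to 224 CPM in other GABA nuclei.

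The genes that stood highest over other GABA nuclei in every library, chosen after their values were seen and given without a test, were led by Hcrtr2, an orexin receptor, and Cacna2d1, a calcium channel subunit. Hcrtr2 had a median of 221 CPM in Lamp5 nuclei and 27.0 CPM in other GABA nuclei. Cacna2d1 had a median of 1881 CPM in Lamp5 nuclei and 293 CPM in other GABA nuclei. Hapln1, a matrix link protein, had a median of 397 CPM in Lamp5 nuclei and 54.2 CPM in other GABA nuclei. Fgf13, a sodium channel partner, and the EGF receptor gene Egfr were also among the first 10. The lowest ratio in any library was 4.61 for Hcrtr2, 4.50 for Cacna2d1 and 4.42 for Hapln1.

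**Figure D1:**
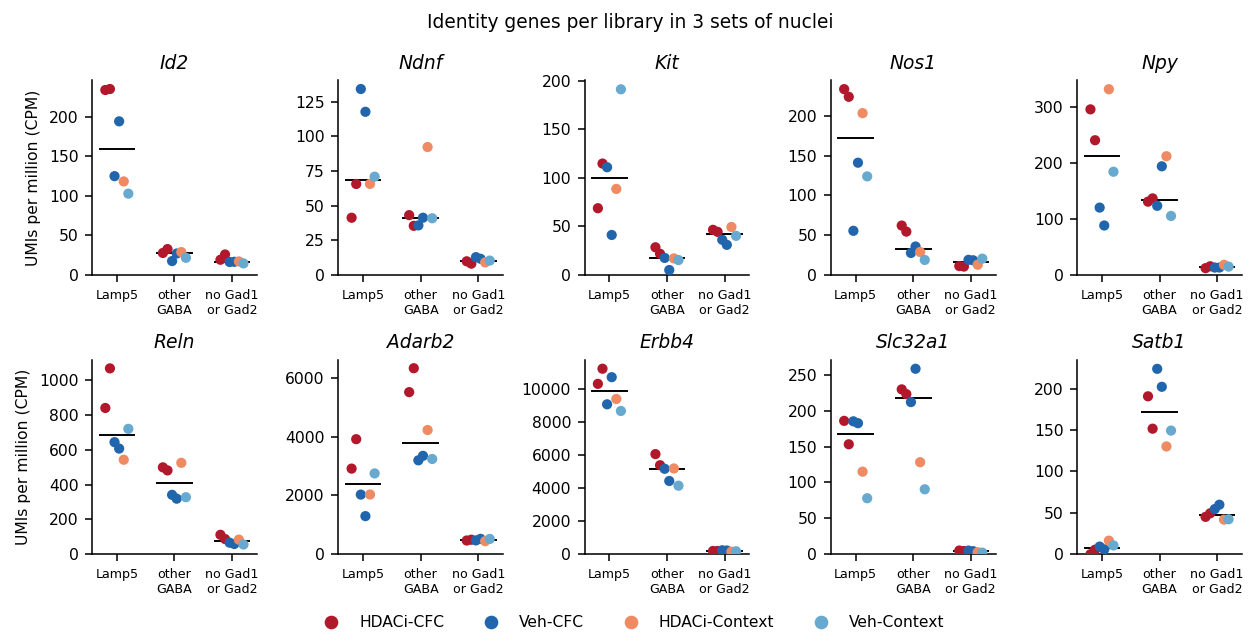
CPM (y axis) of 10 identity genes in Lamp5 nuclei, other GABA nuclei and nuclei with no Gad1 or Gad2 UMI, with 1 point per library coloured by group and a bar at the median of the 6 libraries. Id2, Nos1 and Erbb4 lie higher in Lamp5 nuclei than in other GABA nuclei of the same library in all 6 libraries. Satb1 and Adarb2 lie lower in all 6 libraries, and Ndnf overlaps.

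Markers of other interneurons and other cell types ranged from absent to clearly present. Pvalb lay at 0 to 6.57 CPM, Cnr1 had a median of 131 CPM against 428 CPM in other GABA nuclei, and Sst and Vip were at 0 by the rule. The vesicular glutamate transporter Slc17a7 had a median of 52.1 CPM in Lamp5 nuclei, 57.8 CPM in other GABA nuclei and 263 CPM in nuclei without Gad1 or Gad2. Cck, a peptide of basket cells, had a median of 173 CPM in Lamp5 nuclei and 197 CPM in other GABA nuclei. Vcan, a matrix proteoglycan listed for oligodendrocyte precursors, was higher in Lamp5 nuclei, with a median of 176 CPM, against 31.5 CPM in other GABA nuclei and 31.9 CPM in nuclei without Gad1 or Gad2. Reln had a median of 681 CPM in Lamp5 nuclei, 411 CPM in other GABA nuclei and 603 CPM in nuclei with at least 2 Sst UMIs, and in HDACi-Context Lamp5 nuclei (542 CPM) were close to other GABA nuclei (524 CPM). Of the markers in the Lamp5 list, Ndnf and Kit were detected in 32 and 34 of the 133 nuclei.

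The members were not uniform. Npy was detected in 80 of 133 nuclei, Nos1 in 75, Id2 in 75, Reln in 74 and Adarb2 in 98, and 126 nuclei held at least 1 of Npy, Nos1, Ndnf, Reln, Id2 and Kit. Nos1 was found in 48 of the 80 nuclei with Npy, and Ndnf in 8 of the 75 nuclei with Nos1.

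Lhx6 was detected in 41 nuclei and not in 92. Nuclei with Lhx6 had Nos1 in 29 of 41 and Ndnf in 3 of 41, and nuclei without Lhx6 had Nos1 in 46 of 92 and Ndnf in 29 of 92. Summed over libraries, Adarb2, an RNA-editing family member of caudally derived interneurons, lay at 898 CPM with Lhx6 and 3177 CPM without it. Kit lay at 26.5 CPM with Lhx6 and 149 CPM without it, and Reln at 502 CPM with Lhx6 and 811 CPM without it. Npy, listed for ivy or medially derived cells, lay at 174 CPM with Lhx6 and 236 CPM without it. Only HDACi-CFC replicate 1 had the opposite order for Npy, at 359 and 257 CPM. Nkx2-1, of the same list, lay at 4.83 and 7.90 CPM on 2 and 7 UMIs. Of the caudally derived list, Nr2f2 lay at 29.0 and 27.1 CPM and Prox1 at 31.4 and 54.1 CPM. Id2 lay at 205 CPM with Lhx6 and 132 CPM without it, but HDACi-CFC replicate 1 (161 CPM with and 279 CPM without) and Veh-CFC replicate 1 (116 CPM with and 128 CPM without) had the opposite order. These values are descriptions: 1 UMI of a transcription factor splits nuclei of this depth loosely, and after thinning every nucleus to 3000 UMIs 16 of the 133 still held an Lhx6 UMI.

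The share of Lamp5 nuclei with Lhx6 was 31.6% and 30.0% in the HDACi-CFC libraries, 31.8% and 26.3% in the Veh-CFC libraries, 39.3% in HDACi-Context and 24% in Veh-Context. The CFC groups overlapped and the exact 95% intervals over all libraries ran from 9.15% to 59.4%, so a difference was not detectable at these numbers of nuclei. After thinning the shares were 10.5% and 10.0% in the HDACi-CFC libraries, 18.2% and 15.8% in the Veh-CFC libraries, 7.14% in HDACi-Context and 12.0% in Veh-Context.

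The drug comparison after CFC asked which genes differ between HDACi-CFC and Veh-CFC in Lamp5 nuclei. UMIs were summed per library and tested with edgeR's quasi-likelihood test, and a gene was called at a Benjamini-Hochberg adjusted p below 0.05 over all genes tested. Of 3478 genes tested, 78 (2.24%) were called, of which 53 (1.52%) were higher and 25 (0.719%) were lower in HDACi-CFC. The receptor gene Adra1a and the neuropeptide gene Npy were among the higher ones, and the axon guidance genes Efna5 and Epha7 were among the lower ones. Levels in this comparison are CPM scaled by TMM factors, which remove a common shift between libraries.

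The split between higher and lower genes depended on the scaling. With plain library-size scaling 46 were higher and 42 lower, the median of all tested genes moving to -0.08 (log2). With scaling per nucleus 10 were higher and 40 lower, the median moving to -0.24. All changes below are relative to the TMM scale, and none of the named genes changed sign between these 3 scalings. The count also rested on single libraries: it was 164 without HDACi-CFC replicate 1 and 10 without Veh-CFC replicate 2. A fit that leaves out a library has 1 library in that group, which is assumed to vary like the other group, so a call lost in it does not show a smaller change. Without nuclei marked as doublets it was 97, and without the 2 CFC nuclei that held 5 or more granule marker UMIs, an alternative chosen after seeing the data, it was 174 (113 higher and 61 lower).

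Npy is the peptide that neurogliaform and ivy cells release beside GABA, and it dampens excitatory transmission through its own receptors. Npy lay at 299 and 253 CPM in the HDACi-CFC libraries and at 117 and 85.8 CPM in the Veh-CFC libraries. Both HDACi-CFC libraries were above both Veh-CFC libraries, 2.67-fold on the fitted scale (log2 1.42 ± 0.32 SE, adjusted p = 0.0333). The Context pair showed 354 CPM in HDACi-Context and 182 CPM in Veh-Context, a log2 ratio of 0.96 with a 95% counting interval of 0.46 to 1.47 and no replicate check. Such counting intervals treat every UMI as an independent draw and leave out the spread between nuclei and between animals. In raw UMIs the libraries held 43 and 44 Npy UMIs (HDACi-CFC), 26 and 15 (Veh-CFC), 101 (HDACi-Context) and 52 (Veh-Context). They came from many nuclei: 23 of 39 HDACi-CFC nuclei and 19 of 41 Veh-CFC nuclei held Npy, and the largest single nucleus held 8.59% of the UMIs. After thinning to 3000 UMIs, Npy was found in 52.6% and 45.0% of the HDACi-CFC nuclei, 40.9% and 26.3% of the Veh-CFC nuclei, 57.1% of the HDACi-Context nuclei and 40.0% of the Veh-Context nuclei.

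Npy was higher in HDACi-CFC in nuclei with and without Lhx6, on few UMIs and with no test. In nuclei with Lhx6 Npy was at 262 CPM in HDACi-CFC and 74.1 CPM in Veh-CFC, summed over the 2 libraries of a group. The HDACi-CFC libraries differed there, with 359 CPM in replicate 1 and 148 CPM in replicate 2, against 83.2 and 62.8 CPM in the Veh-CFC libraries. Nuclei without Lhx6 showed 266 CPM in HDACi-CFC and 119 CPM in Veh-CFC. Other GABA nuclei of the same libraries showed a log2 change of 0.07 for Npy (adjusted p = 0.818). The difference of the 2 drug effects (an interaction term, each library forming a block) was log2 1.42 ± 0.38 with an adjusted p of 0.0508, which missed the threshold. The Npy call in Lamp5 nuclei was lost without Veh-CFC replicate 2, with DESeq2, with the stricter Lamp5 or Gad thresholds, with scaling per nucleus and after thinning, the log2 change ranging from 0.75 to 1.72 over 16 alternatives.

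The Npy gene lies at chr6:49822710-49829507 on the plus strand (GRCm38, GENCODE M21) with no gene in the files overlapping it. The 250 bases before its start are shown because Npy is the neuropeptide gene of these cells that rose and histone deacetylases act at promoters. They are chr6:49822460-49822709 (plus strand, GRCm38.p6, from RefSeq), with 69.2% G and C and 21 CpG dinucleotides, against medians of 52.4% and 6 over 32817 such windows. Gys1, the named gene with the lowest fold change after CFC, is shown for comparison, from chr7:45434589-45434838 (plus strand), with 60.0% G and C and 11 CpG. Capitals mark GC boxes, searched as CCGCCC on both strands, which 32.7% of all such windows hold.
Npy: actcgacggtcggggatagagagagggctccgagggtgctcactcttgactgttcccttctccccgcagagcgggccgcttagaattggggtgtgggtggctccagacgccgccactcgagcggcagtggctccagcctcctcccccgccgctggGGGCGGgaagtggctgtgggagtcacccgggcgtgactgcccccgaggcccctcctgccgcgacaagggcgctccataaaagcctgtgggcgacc
Gys1: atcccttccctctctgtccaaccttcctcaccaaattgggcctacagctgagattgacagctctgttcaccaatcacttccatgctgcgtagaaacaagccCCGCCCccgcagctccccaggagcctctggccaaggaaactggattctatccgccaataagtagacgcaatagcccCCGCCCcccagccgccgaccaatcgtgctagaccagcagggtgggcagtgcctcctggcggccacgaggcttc
The Npy window held 1 GC box and the Gys1 window 2, and neither held the TATA box letters TATAAA, which 12.4% of the windows hold. These matches describe letters in the reference and say nothing of a factor's binding.

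Among receptors, Adra1a, the alpha-1A adrenergic receptor that excites hippocampal interneurons, rose after HDACi with CFC. It lay at 812 and 983 CPM in the HDACi-CFC libraries and at 238 and 229 CPM in the Veh-CFC libraries. The groups were far apart, 3.84-fold (log2 1.94 ± 0.25 SE, adjusted p = 0.00429). Adra1a had 446 CPM in HDACi-Context and 439 CPM in Veh-Context, a log2 ratio of 0.02 (counting interval -0.34 to 0.39). Adra1a was found in 35 of 39 HDACi-CFC nuclei and 25 of 41 Veh-CFC nuclei and stayed called in all 16 alternatives tried. The drug effect minus that after Context was log2 1.93 with an adjusted p of 0.0897 in a fit of all 6 libraries, where the single Context libraries are assumed to vary like the CFC ones. Exposure also cannot be told apart there from the processing version of the libraries (Cell Ranger 3.0.1 for CFC, 3.0.2 for Context).

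Chrm2, the muscarinic M2 receptor, had the highest fold change among named genes but rested on few nuclei. Its counts were 34 and 16 UMIs in the HDACi-CFC libraries, 3 and 0 UMIs in the Veh-CFC libraries, 97 UMIs in HDACi-Context and 76 UMIs in Veh-Context. Of 50 UMIs against 3 in the CFC groups, the ratio was 19.6 with a 95% counting interval of 6.33 to 98.3 (edgeR log2 4.29 ± 0.74, adjusted p = 0.0106). In all, 5 HDACi-CFC nuclei and 2 Veh-CFC nuclei held any Chrm2, and 95 of the 97 HDACi-Context UMIs came from a single nucleus. The Chrm2 call was lost without HDACi-CFC replicate 1, without Veh-CFC replicate 2, with DESeq2 and in the fit of all 6 libraries. Chrm2 overlaps the antisense gene 9330158H04Rik, which has counts of its own and was also called, and whether the counting used strand is not given in the sources used here.

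Ntng1 and Hs3st4 were likewise concentrated in few nuclei. Ntng1, an axonal adhesion protein, had 54 and 97 UMIs in the HDACi-CFC libraries, 20 and 28 in the Veh-CFC libraries, 87 in HDACi-Context and 152 in Veh-Context. They came from 6 HDACi-CFC nuclei and 4 Veh-CFC nuclei, and Ntng1 was called (log2 1.93 ± 0.33, adjusted p = 0.0106) but lay lower in the Context pair (log2 -0.80, interval -1.20 to -0.42). Hs3st4, a heparan sulfotransferase, was called after CFC (log2 1.71 ± 0.41, adjusted p = 0.0425) with 45 of 56 UMIs of HDACi-CFC replicate 2 in 1 nucleus. Hs3st4 lay at 56.1 CPM in HDACi-Context and 175 CPM in Veh-Context. The Ntng1 call was lost in 6 of 16 alternatives, among them the fit without doublets. The Hs3st4 call was lost in 6 of 13, among them DESeq2 and the fit without Veh-CFC replicate 2.

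Sel1l3, a membrane protein with little known function, rose. Sel1l3 had 53 and 64 UMIs in the HDACi-CFC libraries, 15 and 16 in the Veh-CFC libraries, 93 in HDACi-Context and 51 in Veh-Context. On the scaled level it was 368 CPM in both HDACi-CFC libraries and 67.2 and 91.6 CPM in the Veh-CFC libraries, 4.66-fold (log2 2.22 ± 0.32, adjusted p = 0.00759). The Context ratio was log2 0.87 (interval 0.36 to 1.39). Sel1l3 was present in 30 of 39 HDACi-CFC nuclei and 18 of 41 Veh-CFC nuclei, and its call was lost in 1 of 16 alternatives, the Lamp5 threshold of 3 UMIs.

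Pde4b and Pde3b were called in opposite directions. Pde4b, which breaks down cAMP, rose: it lay at 472 and 362 CPM in the HDACi-CFC libraries, 130 and 74.4 CPM in the Veh-CFC libraries, 256 CPM in HDACi-Context and 354 CPM in Veh-Context (log2 1.99 ± 0.33 after CFC, adjusted p = 0.0106). The Context pair lay the other way (log2 -0.47, interval -0.92 to -0.02). Pde3b, which also breaks down cAMP, fell: it had 1 and 1 UMIs in the HDACi-CFC libraries, 16 and 11 in the Veh-CFC libraries, 2 in HDACi-Context and 27 in Veh-Context. Over the CFC groups Pde3b was 11.5 times lower with a counting interval of 2.88 to 99.6 (adjusted p = 0.0333), and its Context ratio was log2 -3.75 (interval -6.87 to -1.76). The 3 HDACi libraries held 1 to 2 UMIs each and the 3 vehicle libraries 11 to 27. The Pde4b and Pde3b calls were lost without Veh-CFC replicate 2, and that of Pde3b also without either HDACi-CFC library, without doublets and with DESeq2.

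Gys1, glycogen synthase, had the lowest fold change among the named genes of this comparison. Gys1 had 1 and 0 UMIs in the HDACi-CFC libraries, 18 and 11 in the Veh-CFC libraries, 2 in HDACi-Context and 12 in Veh-Context. The CFC groups differed 24.7 times with a counting interval of 4.09 to 1007 (edgeR log2 -4.25 ± 0.88, adjusted p = 0.023). A Gys1 UMI was seen in 1 of 39 HDACi-CFC nuclei and in 19 of 41 Veh-CFC nuclei. The Gys1 call was lost without HDACi-CFC replicate 2, without Veh-CFC replicate 2 and with DESeq2. Gys1 overlaps Ruvbl2 on the other strand.

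Fut9, a fucosyltransferase, Nexmif, a neurite regulator, Trim37 and Rnf138, ubiquitin ligases, Acer3, a ceramidase, and Cnrip1, a partner of the cannabinoid receptor, also fell after CFC. Fut9 lay at 20.8 and 23.0 CPM in the HDACi-CFC libraries and at 98.6 and 155 CPM in the Veh-CFC libraries (log2 -2.46 ± 0.51, adjusted p = 0.023). The other 5 had log2 changes between -2.06 (Cnrip1) and -2.28 (Rnf138). In the Context pair all 6 lay below 0, with log2 ratios from -0.56 (Cnrip1) to -1.79 (Fut9, Trim37), and the intervals of Cnrip1 and Rnf138 included 0. In other GABA nuclei all 6 were called lower too, with log2 changes from -0.70 (Fut9) to -1.15 (Trim37). The calls of all 6 in Lamp5 nuclei were lost with DESeq2 and without Veh-CFC replicate 2. Without that library their log2 changes lay between -1.87 (Cnrip1) and -2.34 (Acer3). The calls of Acer3 and Trim37 were also lost without Veh-CFC replicate 1.

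Efna5 fell after CFC and lay lower in the Context pair too. Efna5, an ephrin ligand that repels growing axons, lay at 111 and 109 CPM in the HDACi-CFC libraries and at 350 and 526 CPM in the Veh-CFC libraries, 3.93-fold lower in HDACi-CFC (log2 -1.98 ± 0.32, adjusted p = 0.0106). The Context pair had 73.7 CPM in HDACi-Context and 309 CPM in Veh-Context, log2 -2.07 with an interval of -2.83 to -1.37. All 3 HDACi libraries were below all 3 vehicle libraries for Efna5, and a UMI was seen in 15 of 39 HDACi-CFC nuclei and 32 of 41 Veh-CFC nuclei. In other GABA nuclei Efna5 changed by log2 -0.28 (adjusted p = 0.175), and the difference between the classes was -1.56 ± 0.37 (adjusted p = 0.00953). The call in Lamp5 nuclei was lost without Veh-CFC replicate 2 and with the Lamp5 threshold of 3 UMIs.

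Epha7, an ephrin receptor, was called lower after CFC (log2 -1.87 ± 0.40, adjusted p = 0.024), but 39 of the 70 UMIs of Veh-CFC replicate 1 lay in the single nucleus of 42596 UMIs. The Epha7 call was lost without nuclei marked as doublets and without nuclei with granule markers. It was also lost without nuclei with 2 or more Slc17 UMIs (Slc17a7 and Slc17a6 together), without Veh-CFC replicate 1 and with DESeq2. In the Context pair Epha7 was higher, at 211 CPM in HDACi-Context and 105 CPM in Veh-Context. Trpm3, a cation channel, was called lower (log2 -2.01 ± 0.34, adjusted p = 0.0106) with 71 of 75 UMIs of Veh-CFC replicate 1 in 1 nucleus. Without nuclei with granule markers the Trpm3 call was lost (log2 -0.83), and it was also lost with DESeq2. The Context ratio of Trpm3 was log2 0.99 (interval 0.60 to 1.39). Of the Trpm3 UMIs, 119 of 163 in HDACi-Context and 58 of 82 in Veh-Context lay in 1 nucleus each, a spread that the interval leaves out. The part of the Veh-CFC replicate 1 nucleus in the Trpm3 difference was not tested apart from these fits.

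**Figure D2:**
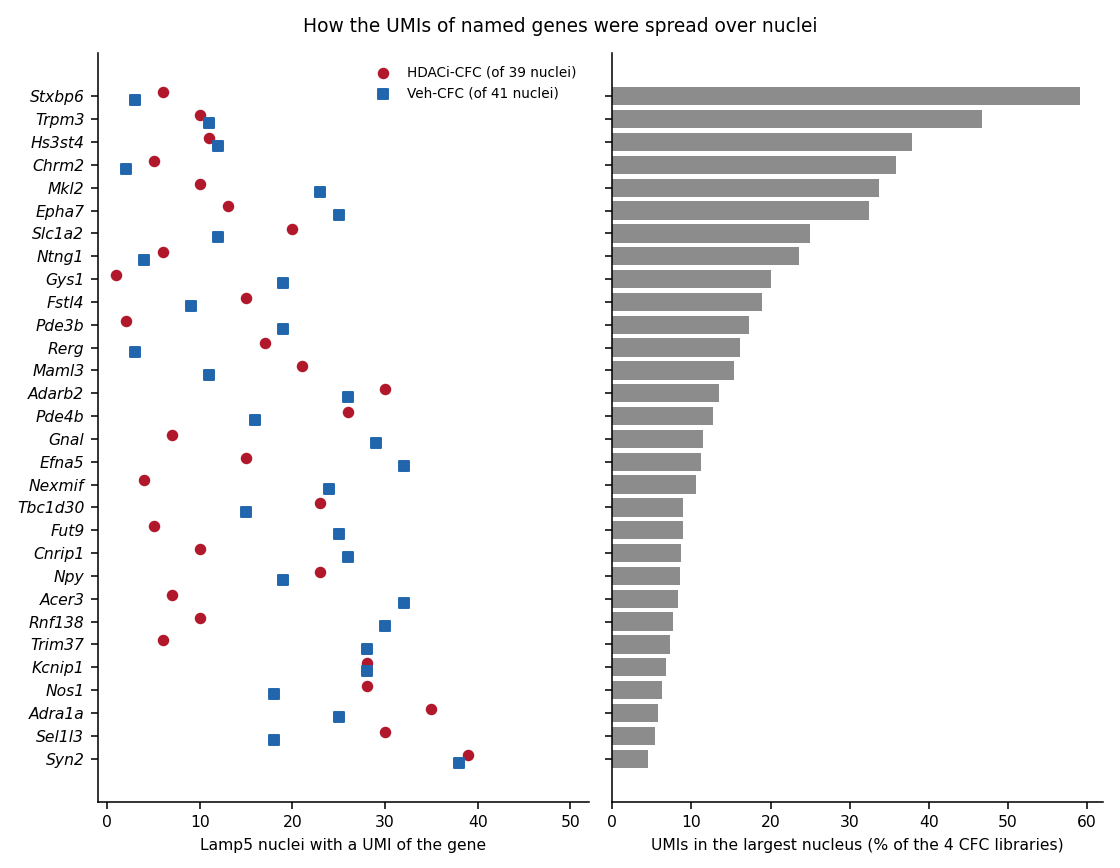
Left, the number of Lamp5 nuclei with a UMI of each gene in HDACi-CFC (of 39 nuclei) and Veh-CFC (of 41 nuclei). Right, the share of the gene's UMIs over the 4 CFC libraries that lay in the largest single nucleus, from 4.56% for Syn2 to 59.1% for Stxbp6.

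Of the remaining named genes, Rerg, a small GTPase, had 10 and 17 UMIs in the HDACi-CFC libraries, 4 and 0 in the Veh-CFC libraries, 19 in HDACi-Context and 15 in Veh-Context (log2 2.99 ± 0.72, adjusted p = 0.0425). Fstl4, Maml3, a Notch coactivator, and Tbc1d30, a Rab regulator, rose with log2 changes of 1.93, 1.76 and 1.66. Gnal, a stimulatory G protein subunit, and Mkl2, a cofactor of serum response factor, fell, with log2 changes of -2.42 and -2.18. Of the 52 Mkl2 UMIs of Veh-CFC replicate 1, 30 lay in 1 nucleus, and the Mkl2 call was lost without nuclei with 2 or more Slc17 UMIs. The calls of Rerg, Fstl4, Maml3, Tbc1d30 and Gnal were lost without Veh-CFC replicate 2 and that of Mkl2 also without Veh-CFC replicate 1. With DESeq2 the calls of Rerg, Fstl4, Maml3, Tbc1d30, Gnal and Mkl2 were lost. Those of Rerg, Maml3 and Tbc1d30 were also lost with scaling per nucleus. Of the 24 named genes, 11 overlap a gene on the other strand.

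**Figure D3:**
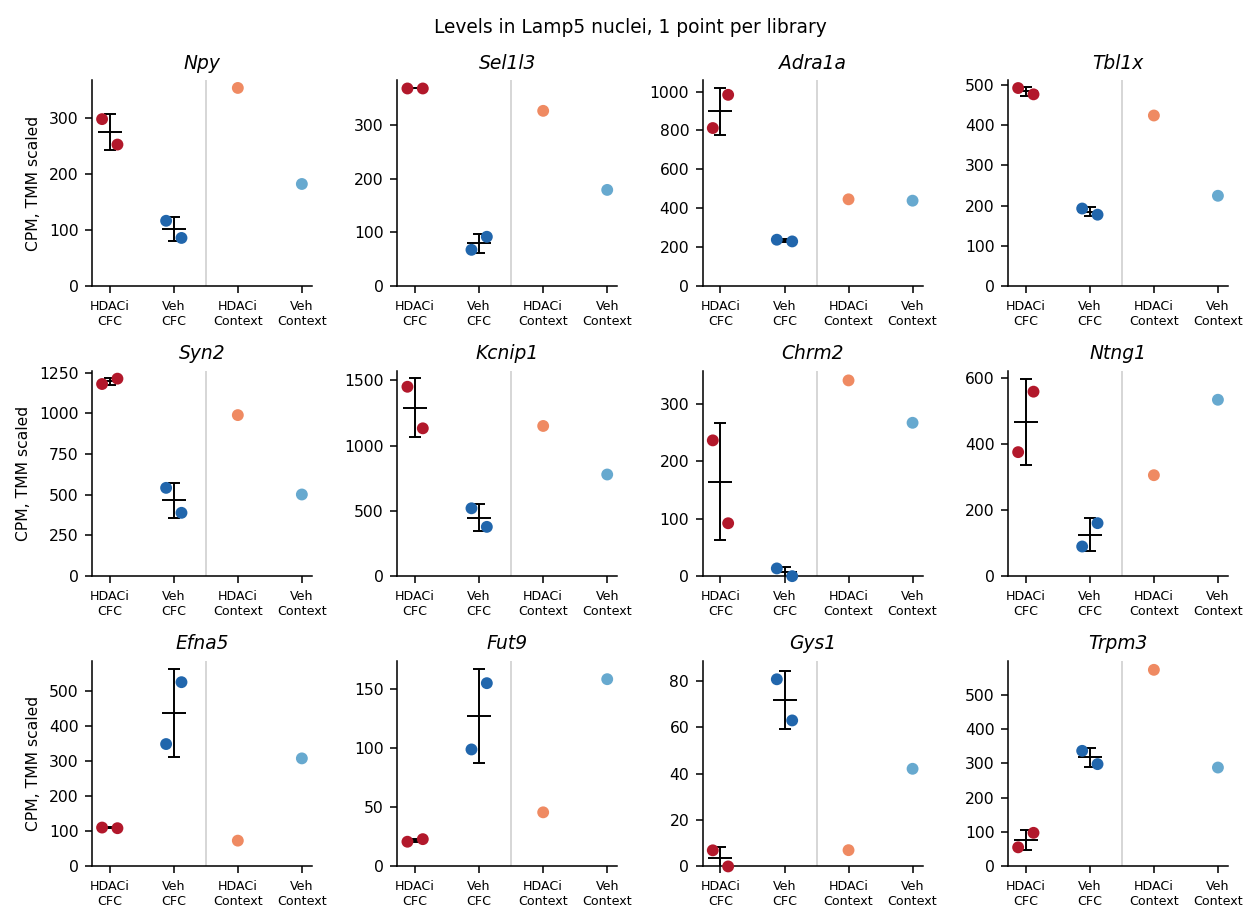
Scaled CPM (y axis) of 12 genes in Lamp5 nuclei, 1 point per library, with the mean and SD of the 2 libraries of each CFC group in black. Npy, Sel1l3, Tbl1x and Syn2 are higher in both HDACi groups than in the matching vehicle group, Efna5, Fut9 and Gys1 are lower in both, Adra1a is level between the Context libraries, and Ntng1 and Trpm3 lie the other way round there.

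Nos1, which makes nitric oxide in these cells, did not pass the test. Nos1 lay at 236 CPM in both HDACi-CFC libraries, 53.8 and 137 CPM in the Veh-CFC libraries, 218 CPM in HDACi-Context and 123 CPM in Veh-Context. Every HDACi library lay above every vehicle library, with log2 1.35 ± 0.38 after CFC and an adjusted p of 0.0773. It passed in 7 of 15 alternatives. Among its partners, Prkg1, the cGMP-dependent kinase, and Gucy1a2, a guanylate cyclase subunit, had log2 changes of -0.66 and -0.82 that did not pass (adjusted p = 0.23 and 0.172). No nitric oxide or cGMP gene was called of 7 tested.

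The identity genes otherwise showed few calls. Adarb2 rose: it lay at 2937 and 4111 CPM in the HDACi-CFC libraries and at 1964 and 1259 CPM in the Veh-CFC libraries (log2 1.13 ± 0.25, adjusted p = 0.0333). Adarb2 had 2168 CPM in HDACi-Context and 2719 CPM in Veh-Context, the other direction. Its call was lost in 8 of 16 alternatives, among them those that left out replicate 2 of either group. Reln (log2 0.70, adjusted p = 0.122), Id2 (0.66, adjusted p = 0.265), Ndnf (-1.11, adjusted p = 0.149), Prox1 (-1.81, adjusted p = 0.121) and Kit (0.33, adjusted p = 0.749) were not called. The Kit sign turned in 4 of 13 alternatives. Of the Prox1 UMIs, 7 of 14 in Veh-CFC replicate 1 and 10 of 13 in Veh-CFC replicate 2 lay in 1 nucleus each.

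None of the 6 genes tested for GABA synthesis, transport and breakdown was called in Lamp5 nuclei. Abat, which breaks GABA down, lay at 271 and 247 CPM in the HDACi-CFC libraries and at 126 and 109 CPM in the Veh-CFC libraries (log2 1.13 ± 0.31, adjusted p = 0.0679). The groups did not overlap for Abat, and it missed the threshold. Among all genes tested 51.3% had CFC groups that did not overlap. Gad1, which the rule used, had 667 and 776 CPM in the HDACi-CFC libraries and 386 and 406 CPM in the Veh-CFC libraries. Slc32a1, the vesicular GABA transporter, differed by log2 -0.04. In other GABA nuclei Abat was called higher, at log2 0.86 (adjusted p = 0.00124), and the difference between the classes was 0.37 ± 0.38 (adjusted p = 0.97).

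Of the transmitter release genes, 25 of 34 were tested, 2 rose and none fell, against 1.52% higher and 0.719% lower over all genes tested, and the median log2 change was 0.38 against 0.00 over all genes tested. Syn2, a synapsin of synaptic vesicles, lay at 1180 and 1213 CPM in the HDACi-CFC libraries, 542 and 389 CPM in the Veh-CFC libraries, 989 CPM in HDACi-Context and 502 CPM in Veh-Context (log2 1.35 ± 0.24 after CFC, adjusted p = 0.0107). Rph3a, a Rab3 effector on vesicles, lay at 507 and 483 CPM in the HDACi-CFC libraries and at 247 and 217 CPM in the Veh-CFC libraries (log2 1.09 ± 0.26, adjusted p = 0.0419). Both lay higher in HDACi-Context than in Veh-Context, with intervals above 0. Snap25 and Syt1, core parts of the fusion machinery, had log2 changes of 0.52 and 0.45 that did not pass. The Syn2 and Rph3a calls were lost without Veh-CFC replicate 2, with scaling per nucleus, after thinning and with the Lamp5 threshold of 3 UMIs. In all, that of Rph3a was lost in 9 of 16 alternatives, among them DESeq2.

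Of the voltage-gated channel genes, 35 of 37 were tested and 2 rose, against 1.52% of all genes tested. Kcnip1, the partner of Kv4 potassium channels, lay at 1451 and 1133 CPM in the HDACi-CFC libraries, 520 and 378 CPM in the Veh-CFC libraries, 1151 CPM in HDACi-Context and 779 CPM in Veh-Context (log2 1.51 ± 0.25 after CFC, adjusted p = 0.0106). Kcnq3, a subunit of the M channel, lay at 708 and 523 CPM in the HDACi-CFC libraries and at 273 and 172 CPM in the Veh-CFC libraries (log2 1.44 ± 0.29, adjusted p = 0.0229), with a Context ratio of log2 -0.19 whose interval included 0. The pore gene of the Kv4 channel, Kcnd2, had a log2 change of -0.25 (adjusted p = 0.592). The Kcnip1 and Kcnq3 calls were lost without Veh-CFC replicate 2 and with the Lamp5 threshold of 3 UMIs. That of Kcnq3 was lost in 6 of 16 alternatives, among them scaling per nucleus. Synaptic adhesion genes gave 2 lower calls of 27 tested, Efna5 and Epha7, against 0.719% of all genes tested, and no call was made among 15 GABA receptor, 19 glutamate receptor, 9 reelin and ErbB4 and 2 gap junction genes tested.

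Of the drug's own targets, Hdac3 and Hdac8 were tested and Hdac1 and Hdac2 were too low. Hdac8 had 22 and 20 UMIs in the HDACi-CFC libraries and 39 and 18 in the Veh-CFC libraries (log2 -0.09, adjusted p = 0.914). Tbl1x, a subunit of the corepressor that holds HDAC3, rose: it lay at 493 and 477 CPM in the HDACi-CFC libraries, 193 and 177 CPM in the Veh-CFC libraries, 425 CPM in HDACi-Context and 225 CPM in Veh-Context (log2 1.38 ± 0.26 after CFC, adjusted p = 0.0183). It was the 1 call among 15 corepressor genes tested, against 2.24% of all genes tested called in either direction. The Tbl1x call was lost without Veh-CFC replicate 2, with scaling per nucleus, after thinning and with the Lamp5 threshold of 3 UMIs. The acetyltransferase gene Ep300 lay at 48.6 and 57.5 CPM in the HDACi-CFC libraries and at 166 and 137 CPM in the Veh-CFC libraries and missed the threshold (log2 -1.50 ± 0.38, adjusted p = 0.052). None of 9 acetyltransferase genes and 6 other deacetylase genes tested was called.

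Most immediate early genes gave few UMIs in Lamp5 nuclei 1 h after either exposure. Fos had 0 and 1 UMIs in the HDACi-CFC libraries, 2 and 0 in the Veh-CFC libraries and none in either Context library. Arc and Npas4 had 0 to 2 UMIs in each library. Of 20 immediate early genes 1 was tested, Nr4a1, with 13 and 13 UMIs in the HDACi-CFC libraries, 7 and 2 in the Veh-CFC libraries, 19 in HDACi-Context and 10 in Veh-Context (log2 1.83 ± 0.55, adjusted p = 0.0933). At this depth a difference of the other 19 was not detectable. Of 18 late activity genes 6 were tested and none was called, and the same held for 6 of 12 neurofilament and stathmin genes.

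The sum of astrocyte markers was higher in the HDACi libraries of both exposures, and the sums of other glial lists overlapped between the CFC groups or were low. Summed over 5 astrocyte genes (Aqp4, Gja1, Slc1a2, Slc1a3, Gfap), Lamp5 nuclei held 502 and 175 CPM in the HDACi-CFC libraries, 83.3 and 58.9 CPM in the Veh-CFC libraries, 227 CPM in HDACi-Context and 99.2 CPM in Veh-Context. Slc1a2, a glutamate transporter of astrocytes, was the only one of the 5 tested and was called (log2 1.83 ± 0.45, adjusted p = 0.0473). The Slc1a2 call was lost without doublets, without Veh-CFC replicate 2 and with DESeq2. Aqp4 had 0 to 2 UMIs per library, and Gja1 had 7 UMIs in HDACi-CFC replicate 1, 1 in HDACi-Context and 0 in the other 4 libraries. Gfap had 8 and 2 UMIs in the HDACi-CFC libraries, 1 and 0 in the Veh-CFC libraries and none in either Context library. In HDACi-CFC replicate 1, the largest nucleus of each gene held 20 of 39 Slc1a2, 11 of 17 Slc1a3 and 7 of 8 Gfap UMIs. Summed over the granule genes Dsp, Stxbp6, C1ql2 and Prox1, the levels were 48.1 and 49.2 CPM in the HDACi-CFC libraries, 217 and 159 CPM in the Veh-CFC libraries, 82.1 CPM in HDACi-Context and 63.8 CPM in Veh-Context. A single nucleus held 29 of the 33 Dsp, Stxbp6 and C1ql2 UMIs of Veh-CFC replicate 1. Another held 13 of the 14 in Veh-CFC replicate 2. The part of these markers in the calls was not tested beyond the fits without doublets and without granule-marked nuclei. The 6 excitatory neuron markers summed to 68.8 and 54.7 CPM in the HDACi-CFC libraries, 97.2 and 70.6 CPM in the Veh-CFC libraries, 59.1 CPM in HDACi-Context and 124 CPM in Veh-Context, with Slc17a6 at 0. The oligodendrocyte markers summed to 220 and 71.1 CPM in the HDACi-CFC libraries and 78.6 and 100 CPM in the Veh-CFC libraries, and the microglia markers to 68.8 and 137 CPM in the HDACi-CFC libraries and 125 and 124 CPM in the Veh-CFC libraries. Of the oligodendrocyte, oligodendrocyte precursor, microglia and endothelial lists Vcan alone was tested, and it was not called (log2 -0.36, adjusted p = 0.596).

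The Context pair compares the same drug in other mice, with 1 library per group and no test, and its direction rests on the title of the library labelled Veh-Context. Both Context libraries carry Cell Ranger 3.0.2 in their headers and the CFC libraries 3.0.1. Exposure therefore cannot be told apart from processing where CFC is compared with Context. Of 4887 genes with at least 20 UMIs over the pair, 307 (6.28%) were more than 2-fold higher and 432 (8.84%) more than 2-fold lower in HDACi-Context than in Veh-Context. With at least 50 UMIs the split was 108 higher and 68 lower, and with library-size scaling, which moved the median to -0.12, it was 200 higher and 617 lower. Of the 53 genes called higher after CFC, 42 lay above 0 in the Context pair, with a median log2 ratio of 0.56, and 32 had counting intervals above 0. Of the 25 called lower after CFC, 22 lay below 0, with a median of -0.87, and 15 had intervals below 0. Over all 3478 genes tested, 1783 lay above 0 and 1695 below, with intervals above 0 for 473 and below 0 for 350. These intervals leave out the spread between nuclei. A fit of all 6 libraries tested whether the drug effect differed between the exposures and called 5 of 3702 genes (0.135%), 3 (0.081%) with a higher and 2 (0.054%) with a lower effect after CFC. The exceptions in direction among the lower genes named above were Trpm3 and Epha7, and among the higher ones Pde4b, Ntng1, Hs3st4, Kcnq3 and Adarb2.

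**Figure D4:**
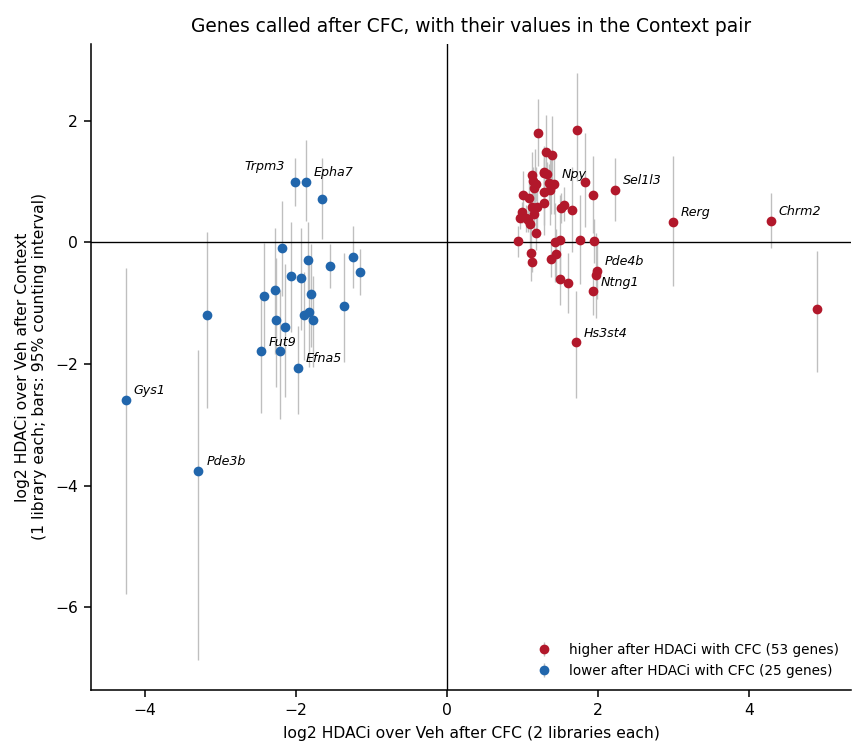
Log2 HDACi over vehicle after CFC (x axis, edgeR fit of 2 libraries per group) against log2 HDACi over vehicle after Context (y axis, 1 library per group, with 95% counting intervals) for the 78 genes called after CFC. Red points are the 53 higher genes, of which 42 lie above 0 on the y axis, and blue points are the 25 lower genes, of which 22 lie below 0.

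The same libraries hold 1188 other GABA nuclei, in which 2753 of 11781 genes tested (23.4%) were called after CFC, 1610 higher (13.7%) and 1143 lower (9.7%). The classes differ in their number of nuclei, so these counts do not compare them. Of the 53 genes called higher in Lamp5 nuclei the median log2 change in other GABA nuclei was 0.94, against 1.35 in Lamp5 nuclei. For the 25 called lower it was -0.28 in other GABA nuclei, against -1.98 in Lamp5 nuclei. Both sets had been chosen by their values in Lamp5 nuclei. Over all genes tested in Lamp5 nuclei, the median log2 change in other GABA nuclei was 0.19.

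A test of the difference between the classes, with library as a block, called 37 of 10234 genes (0.362%), 9 (0.0879%) with a higher and 28 (0.274%) with a lower drug effect in Lamp5 nuclei. Without nuclei marked as doublets it called 5, and leaving out single libraries gave 16 to 46. Chrm2 had a drug effect of log2 4.29 in Lamp5 nuclei and 0.13 in other GABA nuclei, with a difference of 4.44 ± 0.65 (adjusted p = 9.00e-08). Pde4b had 1.99 in Lamp5 nuclei and 0.49 in other GABA nuclei, with a difference of 1.65 ± 0.37 (adjusted p = 0.00414). Gnal had -2.42 in Lamp5 nuclei and -0.12 in other GABA nuclei, with a difference of -2.19 ± 0.52 (adjusted p = 0.00953). Adra1a, Sel1l3 and Ntng1, in contrast, missed the threshold of this test (adjusted p = 0.423, 0.0624 and 0.0956), as did Gys1 and Pde3b (adjusted p = 0.111 and 0.371).

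**Figure D5:**
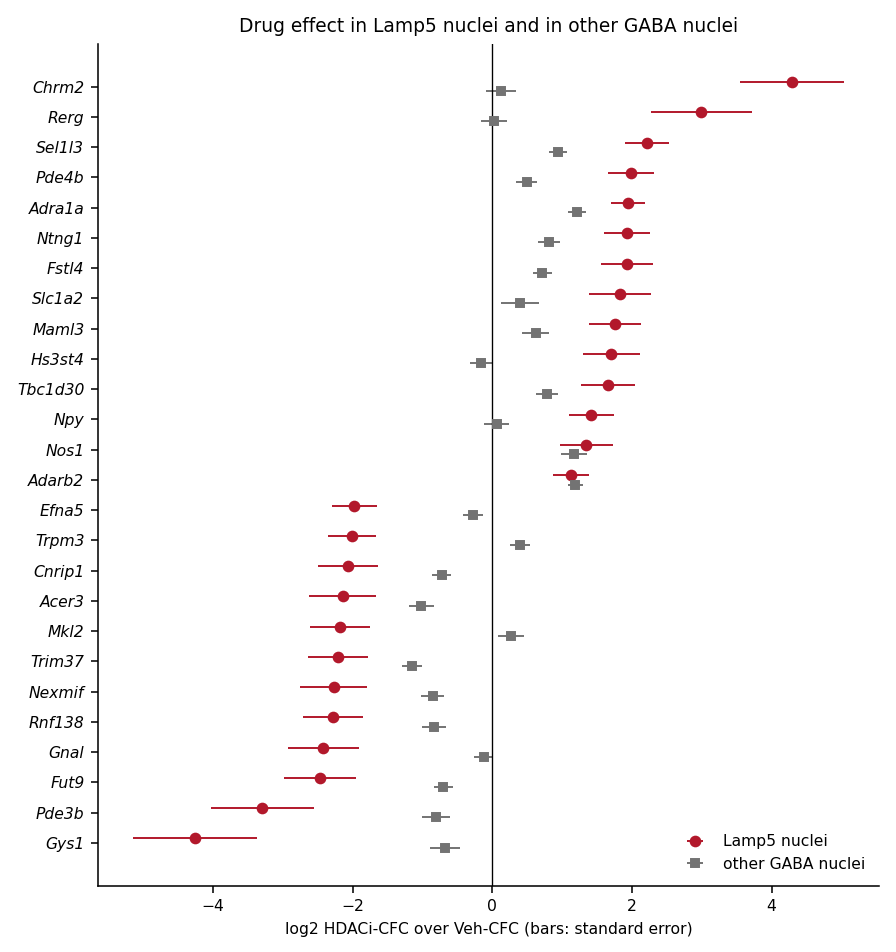
Log2 HDACi-CFC over Veh-CFC (x axis, bars are standard errors of the edgeR fit) for genes named in the drug comparison and for Npy, Nos1 and Adarb2, in Lamp5 nuclei (red circles) and in other GABA nuclei of the same libraries (grey squares). Nos1 and Adarb2 sit close together in both classes, while Chrm2, Npy, Hs3st4, Gnal and Trpm3 lie near 0 or on the other side in other GABA nuclei.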

How the data were processed

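Single-nucleus libraries were made with 10x Genomics 3' v3 chemistry, per the labels' protocols. The authors deposited UMI counts per gene and barcode as filtered matrices, with Cell Ranger 3.0.1 in the headers of the 4 CFC libraries and 3.0.2 in those of both Context libraries, per the file headers. The submitters' processing notes name Cell Ranger 3.0.1, Seurat 4.0.3 and mm10. Nuclei were selected by the rule given above with Python 3.11.15. Doublets were marked by Scrublet (scanpy 1.11.5, expected rate 0.06) and kept, and an alternative leaves them out. Counts were summed per library and tested by the quasi-likelihood test of edgeR 4.0.16 under R 4.3.3, with limma 3.58.1 loaded. The default low-count filter of edgeR and TMM scaling came first, and p-values had Benjamini-Hochberg adjustment. DESeq2 1.42.0 served as an alternative test, and the fits were tested on simulated data. CPM in the identity, Lhx6 and marker results are plain, and CPM in the drug comparisons are TMM-scaled. The named genes were the 12 highest and 12 lowest log2 changes among called genes with at least 20 UMIs over the CFC libraries, groups that do not overlap and an established symbol, the 5 highest and 5 lowest of the class difference, and the genes of the fixed lists; some genes that the rule names are not reported here. Members, lists and rules were chosen with earlier results of these data known. Alternatives changed scaling, filters, thresholds, nuclei and libraries.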

Additional observations from a re-analysis of the deposited data

Results flagged for a closer look

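The drug effect after CFC differed between Lamp5 nuclei and other GABA nuclei for 10 genes named by the rule, by a test of the difference itself. The difference in log2 was 4.44 for Chrm2, 3.15 for Rerg, 3.07 for Lama2, a laminin subunit, 2.89 for Slc1a3, an astrocyte glutamate transporter, and 2.10 for Gpc5, a glypican. It was -9.30 for Tll1, -2.91 for Stxbp6, -2.33 for Frmd4b, -2.32 for Epha7 and -2.31 for Mkl2. The Tll1 value depends on the prior count, since Tll1 had 0 and 0 UMIs in the HDACi-CFC libraries and 21 and 4 in the Veh-CFC libraries, at least 7.09-fold lower against a floor of 3 UMIs over the group. Of the 38 Stxbp6 UMIs in Veh-CFC, 26 lay in the nucleus of 42596 UMIs. Without doublets 8 of the 10 calls were lost, and those of Chrm2 and Tll1 were not. The Tll1 call was lost in 2 of 10 alternatives, each of which left out 1 library. Of the 21 Tll1 UMIs of Veh-CFC replicate 1, 11 lay in 1 nucleus, and the 4 of replicate 2 came from 2 nuclei.

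The drug effect after CFC minus that after Context was 2.74 for Ntng1 (adjusted p = 0.047) and -3.00 for Trpm3 (adjusted p = 0.0201) in log2, among 5 of 3702 genes called (0.135%). In that fit the single Context libraries are assumed to vary like the CFC libraries, and exposure cannot be told apart from the Cell Ranger version. Both genes rested on few nuclei, and 146 of the 152 Ntng1 UMIs in Veh-Context came from 1 nucleus.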

How the results depend on the processing

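The number of genes called after CFC (78, 53 higher and 25 lower) was 160 (101 and 59) in the fit of all 6 libraries, 136 (88 and 48) with no filter, 174 (113 and 61) without granule-marked nuclei, 50 (10 and 40) with scaling per nucleus, 33 (22 and 11) with at least 5 Gad UMIs, 27 (25 and 2) with DESeq2, 13 (10 and 3) after thinning and 1 (1 and 0) with at least 3 Lamp5 UMIs, where edgeR gave 199 genes at an unadjusted p under 0.05. Lower calls were 42 with library-size scaling and 16 without nuclei with 2 or more Slc17 UMIs. Leaving out 1 library gave 10 to 164 calls, 5 to 104 higher and 5 to 60 lower. With a replicate block 229 were called (150 and 79). Deviations of same-numbered libraries from their group means correlated at 0.0305. With 2 libraries per group these deviations mirror each other, so this single value cannot decide whether the numbers pair the libraries. The class difference (37 genes, 9 higher and 28 lower) gave 5 (1 and 4) without doublets, 18 higher with library-size scaling and 18 higher without granule-marked nuclei, and 16 to 46 (4 to 9 higher, 7 to 41 lower) with 1 library left out. In the Context pair 176 genes passed 2-fold with at least 50 UMIs, against 739 at 20. The member share difference (HDACi-CFC minus Veh-CFC) was -0.0437 percentage points of kept nuclei and -0.681 of Gad nuclei, and that of the Lhx6 share was 1.72 points and, after thinning, -6.72. The Kit log2 change (0.33, and -0.13 to 1.31 with 1 library left out) turned to -0.09 without HDACi-CFC replicate 2, -0.13 without Veh-CFC replicate 2, -0.27 with all 6 libraries and -0.43 without doublets. The Stxbp6 class difference turned to 2.20 without nuclei with 2 or more Slc17 UMIs and 2.00 without granule-marked nuclei. The cause of these shifts was not tested. With about 20 nuclei per library, genes of few UMIs could not be tested.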
